A study of Callithrix jacchus with 4 samples.

Results

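TTC12, CPEB3, RSRP1, PALS2, INHBA and SPART are 6 genes, of 18014 measured, whose array features lay below the vehicle sample at several times after the neurotoxin MPTP. They were chosen by these same log2 ratios, because both features of each gene were low on more than 1 array, so the low values are given as a description. The tissue came from male common marmosets aged 3 years. It was the pars compacta of the substantia nigra, cut by laser microdissection as a unilateral strip of stained midbrain sections, which holds dopamine neurons together with glia, vessels and other neurons. 1 animal received vehicle intravenously, and 4 animals were injected once by the same route with MPTP (2.5 mg/kg) under pentobarbital anaesthesia. They were killed after 2 h, after 6 h, after 1 day and after 14 days, 1 animal at each time. Each of the 4 arrays set the RNA of 1 MPTP animal, labelled with Cy5, against that of the same vehicle animal, labelled with Cy3. The probes were designed for human transcripts, and the dyes were not swapped.

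The 6 genes belong to no common pathway. TTC12 is a cytoplasmic factor for the assembly of axonemal dynein arms, the motors of beating cilia, and its loss causes a ciliary motility disorder in people. CPEB3 binds messenger RNAs and holds back their translation, and in mouse neurons its targets include AMPA receptor subunits. RSRP1 is a protein rich in arginine and serine whose role is poorly known. PALS2 is a membrane scaffold of the MAGUK family, INHBA encodes the subunit that pairs with itself to form the signalling protein activin A, and SPART encodes spartin, a protein of endosomes and lipid droplets that is lost in Troyer syndrome, a hereditary spastic paraplegia.

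Values below are log2 ratios of MPTP over vehicle, so 0 is the vehicle level. A gene's value is the median over its 2 features, and the SD beside it is the spread between those features, not between animals. The direction of the ratio is likely rather than stated. It rests on the dyes in the labels and on the convention of Cy5 over Cy3, and with the inverse ratio every sign would turn. With 1 animal per time and 1 vehicle animal, no value could be tested against the spread between animals, and a vehicle animal with an unusual level of a transcript cannot be told apart from an effect common to all 4 MPTP animals. In strips of tissue, fewer cells of a type and less RNA per cell cannot be told apart either. "At least 2-fold lower" is used as a threshold of size only.

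TTC12 (Entrez Gene 54970) had the lowest ratios of the 6 genes at every time. From the earliest array to the latest, its less negative feature read −3.07, −2.43, −2.14 and −2.28. Its other feature lay at −3.41, −2.93, −2.79 and −3.31. Both features were thus more than 2-fold below vehicle on every array, and none of the 8 values came near 0. The features carry the same transcript record, and whether they are separate probes is not known. The gene value was −3.24 ± 0.24 (SD, 2 features) at 2 h, or 9.44-fold lower, and −2.68 ± 0.36 at 6 h. It was −2.47 ± 0.46 at 1 day, or 5.53-fold lower, and −2.79 ± 0.73 at 14 days. Among the 7411 genes with 2 or more features it ranked lowest at 2 h, 6 h and 1 day and second from the lowest at 14 days. Among all 18014 genes, including those with 1 feature, its rank from the lowest on the 4 arrays was 11, 25, 27 and 8 in order of time.

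Other factors for the assembly of dynein arms did not lie low with TTC12 as a group. Of 17 listed factors 16 were measured, and their median on the 4 arrays was 0.02, 0.03, 0.0 and 0.06 in order of time. With only the factors of 2 or more features, SPAG1, RUVBL1 and RPAP3, the last was −0.17, which is the value of SPAG1 alone. At 2 h, 2 of the 16 were at least 2-fold lower, against 7.22% of all genes, and none was at least 2-fold higher, against 5.47%. On the 6 h array 2 were lower (3.89% of all genes) and 1 higher (3.37%), on the 1 day array 0 lower (1.67%) and 0 higher (2.27%), and on the 14 days array 1 lower (2.12%) and 2 higher (2.16%). The low member throughout was RPAP3, a co-chaperone that acts with Hsp90 in the assembly of protein complexes. Its values in order of time were −2.27 ± 0.07 (SD, 10 features), −1.65 ± 0.06, −0.76 ± 0.04 and −1.04 ± 0.06. All 10 features carry 1 transcript record and may be repeat spots, so the small SD may describe the array and not separate probes. RUVBL2, an ATPase of the same co-chaperone complex, lay on the other side of vehicle at 0.77, 1.71, 0.21 and 1.46, from 1 feature. DNAAF2, an assembly factor, lay at −1.66, −0.68, 0.03 and −0.69, from 1 feature. Markers of ciliated ependymal cells, in which dynein arms are used, had medians of 0.10, 0.01, 0.0 and 0.15 over 8 genes. None of the 8 was at least 2-fold lower at any time (7.22%, 3.89%, 1.67% and 2.12% of all genes). At least 2-fold higher were 1 at 2 h (5.47%), which was SPAG6 at 1.40 ± 1.38 (SD, 2 features), and 0 at the later times (3.37%, 2.27% and 2.16%). CFAP126 and TEKT1, and DNAAF1 among the 16 assembly factors, were listed at exactly 0 on all 4 arrays.

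CPEB3 (Entrez Gene 22849) lay far below vehicle at 2 h and close to the 2-fold line afterwards. The 2 h array gave −2.48 and −2.39 for its features, the 6 h array −0.92 and −1.11, the 1 day array −0.83 and −1.04, and the 14 days array −1.13 and −1.40. The features never differed by more than 0.27, and both placed the 2 h array apart from the other three. The gene value was −2.44 ± 0.07 (SD, 2 features), or 5.41-fold lower, at 2 h. It was −1.02 ± 0.13 at 6 h, −0.94 ± 0.14 at 1 day and −1.26 ± 0.19 at 14 days. From 2 h to 6 h, between different animals, both features moved towards vehicle, by 1.56 and 1.28 on the log2 scale. The gap between the features does not measure the spread between animals. Both features carry the same transcript record.

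The CPEB relatives were nearer to vehicle than CPEB3 on each array. CPEB1, which has 1 feature, lay at −0.72, −0.11, −0.49 and −0.27. CPEB2 lay at 0.10, −0.16, 0.18 and 0.21, and CPEB4 at −0.75, 0.08, −0.37 and −0.39, each from 2 features. These paralogues bind related elements in messenger RNA, and no value of the 3 passed 2-fold. With the proteins that lengthen, shorten or bind the poly(A) tail, 22 of 24 listed genes were measured, with medians of −0.33, −0.14, 0.0 and 0.0 from 2 h to 14 days. At 2 h, 3 of 22 were at least 2-fold lower (7.22% of all genes) and 1 higher (5.47%). On the 6 h array 3 were lower (3.89%) and 0 higher (3.37%), on the 1 day array 1 lower (1.67%) and 0 higher (2.27%), and on the 14 days array 0 lower (2.12%) and 1 higher (2.16%). The lower ones included the cytoplasmic poly(A)-binding protein PABPC1 (−1.40 ± 0.33, SD of 3 features, at 2 h) and its partner PAIP1 (−1.15 ± 0.10, 2 features, at 2 h and −1.42 ± 0.77 at 6 h). SYMPK, the scaffold of the cleavage and polyadenylation machinery, lay at −1.58, −1.04, −1.69 and −0.82 from 1 feature. GRIA2, an AMPA receptor subunit whose messenger RNA CPEB3 binds in mouse, lay at −0.45 ± 0.86, −1.17 ± 1.09, 0.38 ± 0.39 and 0.05 ± 0.62 over 3 features. The SD of its features was about as large as its distance from vehicle at 6 h and 1 day, and larger at 2 h and 14 days.

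RSRP1 (Entrez Gene 57035) lay lowest at 2 h and came nearer to vehicle at later times. Its features, which carry different transcript records, lay at −2.52 and −2.82 at 2 h and at −0.70 and −0.59 at 1 day. At 6 h they split, at −1.09 and −2.57, and at 14 days they lay at −1.30 and −0.75. Both features were below vehicle on every array, but the order of 6 h and 14 days differed between them. The gene value was −2.67 ± 0.21 (SD, 2 features), or 6.37-fold lower, at 2 h and −1.83 ± 1.04 at 6 h. It was −0.64 ± 0.08 at 1 day and −1.02 ± 0.39 at 14 days. The step from 2 h to 1 day, between different animals, was 1.82 for 1 feature and 2.23 for the other. The gap between the features was 0.30 and 0.11 on those arrays, which does not measure the spread between animals.

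Genes for SR proteins, which guide splicing, and for the kinases that phosphorylate them had medians below vehicle. Of 27 listed, 26 were measured, with medians of −0.32, −0.14, −0.07 and −0.24 in order of time. The 6 h median was −0.50 with only members of 2 or more features. At 2 h, 4 of 26 were at least 2-fold lower (7.22% of all genes) and 0 higher (5.47%). On the 6 h array 1 was lower (3.89%) and 1 higher (3.37%), on the 1 day array 0 lower (1.67%) and 0 higher (2.27%), and on the 14 days array 2 lower (2.12%) and 0 higher (2.16%). RSRC1, another protein rich in arginine and serine, lay at −1.46 ± 0.43 (SD, 2 features), −0.97 ± 1.17, −0.47 ± 0.15 and −1.22 ± 0.19. The splicing factor LUC7L3 lay at −1.02 ± 0.38 (3 features) at 2 h and −1.04 ± 0.10 at 14 days. SRSF5 lay the other way at 6 h, at 1.01 from 1 feature.

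PALS2 (Entrez Gene 51678, earlier MPP6) lay at least 2-fold below vehicle in both features at 2 h, 6 h and 14 days. The 2 h array gave −1.95 and −2.15 for its features, the 6 h array −1.43 and −2.10, the 1 day array −0.66 and −0.77, and the 14 days array −1.10 and −1.66. They carry different transcript records, and the same feature was the lower one at each time. The gene value was −2.05 ± 0.14 (SD, 2 features), −1.76 ± 0.48, −0.71 ± 0.08 and −1.38 ± 0.40, so the 1 day array stood nearest to vehicle. Between 1 day and 14 days both features moved away from vehicle, by −0.44 and −0.90.

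The scaffolds and polarity proteins around PALS2 had medians close to vehicle. Of 26 listed genes 24 were measured, with medians of 0.09, 0.02, −0.05 and −0.01. With only members of 2 or more features the first was −0.15. At 2 h, 1 of 24 was at least 2-fold lower (7.22% of all genes) and 3 were higher (5.47%). At 6 h, 1 day and 14 days none was 2-fold lower (3.89%, 1.67% and 2.12% of all genes) and none 2-fold higher (3.37%, 2.27% and 2.16%). The low one was LIN7C, an adaptor that binds MAGUK proteins, with values of −1.78 ± 0.80 (SD, 3 features), −0.03 ± 1.02, −0.70 ± 0.57 and −0.66 ± 0.48. Its relative LIN7B lay at 1.09 at 2 h, from 1 feature. CRB1, a transmembrane polarity protein, had a value of 2.46 at 2 h with an SD of 3.44 between its 2 features, which therefore disagree.

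INHBA (Entrez Gene 3624) had the widest gaps between features of the 6 genes at 2 h and 6 h. At those times the description of agreeing probes does not hold for it. In order of time, its less negative feature read 0.34, −0.31, −1.06 and −1.36. Its other feature, of a different transcript record, lay at −2.10, −2.30, −2.07 and −1.96. The features were 2.44 apart at 2 h and 1.98 apart at 6 h and stood on opposite sides of vehicle at 2 h. Over the 5162 genes with exactly 2 features, the median gap was 0.56 at 2 h (quartiles 0.25 and 1.06) and 0.44 at 6 h (quartiles 0.18 and 0.83). At 1 day the INHBA features were still 1.01 apart, against a median of 0.33 (quartiles 0.14 and 0.67). Gaps above the upper quartile also occurred for RSRP1 at 6 h (1.47) and for TTC12 at 14 days (1.03, upper quartile 0.69). Only at 1 day and 14 days were both INHBA features at least 2-fold lower, with gene values of −1.57 ± 0.71 (SD, 2 features) and −1.66 ± 0.43. The gene values at 2 h and 6 h, −0.88 ± 1.73 and −1.30 ± 1.40, were smaller than the spread between the features. The lower gene values at later times came from 1 feature, which moved by −1.70 from 2 h to 14 days, while the other moved by 0.14.

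The other genes of activin signalling lay on both sides of vehicle. Of 22 listed genes 21 were measured, with medians of 0.26, 0.27, 0.06 and 0.09. With only members of 2 or more features the first and the second were 0.09. At 2 h, 2 of 21 were at least 2-fold lower (7.22% of all genes) and 3 higher (5.47%). At 6 h, 2 were lower (3.89%) and 4 higher (3.37%), at 1 day 0 lower (1.67%) and 0 higher (2.27%), and at 14 days 1 lower (2.12%) and 2 higher (2.16%). Among the ligand subunits, INHBB, the beta B subunit, lay at 1.16, 1.42, −0.22 and 0.69, and INHA, the alpha subunit of the antagonist inhibin, lay at 0.26, 1.18, 0.31 and 0.32. Among the receptors, ACVR1, a type I receptor, lay at −1.69, −1.11, −0.83 and −1.28. The coreceptor TGFBR3 lay at 0.59, 2.76, −0.36 and 0.54. BAMBI, a pseudoreceptor that blocks signalling, lay at −2.12, −1.68, −0.76 and −0.63, and FSTL3, which binds activin outside the cell, at 1.22, 0.58, 0.34 and −0.45. Each of these 6 genes had 1 feature, so no second feature checks its value.

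SPART (Entrez Gene 23111, earlier SPG20) lay low at both early times. The 2 h array gave −1.50 and −1.95 for its features, the 6 h array −1.71 and −1.97, the 1 day array −0.51 and −0.66, and the 14 days array −0.82 and −0.91. Both features were at least 2-fold lower at 2 h and 6 h, and neither was at 1 day or 14 days. The gene value was −1.73 ± 0.32 (SD, 2 features) at 2 h and −1.84 ± 0.18 at 6 h, a difference within the spread between features. At 1 day it was −0.58 ± 0.11 and at 14 days −0.86 ± 0.06. The features, which share a transcript record, moved towards vehicle by 1.00 and 1.29 from 2 h to 1 day.

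Genes of hereditary spastic paraplegia and partners of spartin had medians of −0.14, −0.02, 0.01 and −0.10 over 38 measured of 39 listed. With only members of 2 or more features the first was −0.25. At 2 h, 2 of 38 were at least 2-fold lower (7.22% of all genes) and 0 higher (5.47%). On the 6 h array 0 were lower (3.89%) and 2 higher (3.37%), on the 1 day array 0 lower (1.67%) and 0 higher (2.27%), and on the 14 days array 1 lower (2.12%) and 0 higher (2.16%). VPS4B, the ATPase that takes ESCRT-III apart, lay at −1.47 ± 0.13 (SD, 2 features) at 2 h and −0.73 ± 0.27, −0.58 ± 0.61 and −0.71 ± 0.06 later. HSPD1, the mitochondrial chaperonin Hsp60, lay at −1.08 ± 0.13 (2 features), −0.87 ± 0.09, −0.56 ± 0.09 and −0.78 ± 0.08. Both thus lay below vehicle on all 4 arrays and past 2-fold on 1. PNPLA6, a lysophospholipase, lay at 2.67 at 6 h from 1 feature.

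**Figure D1:**
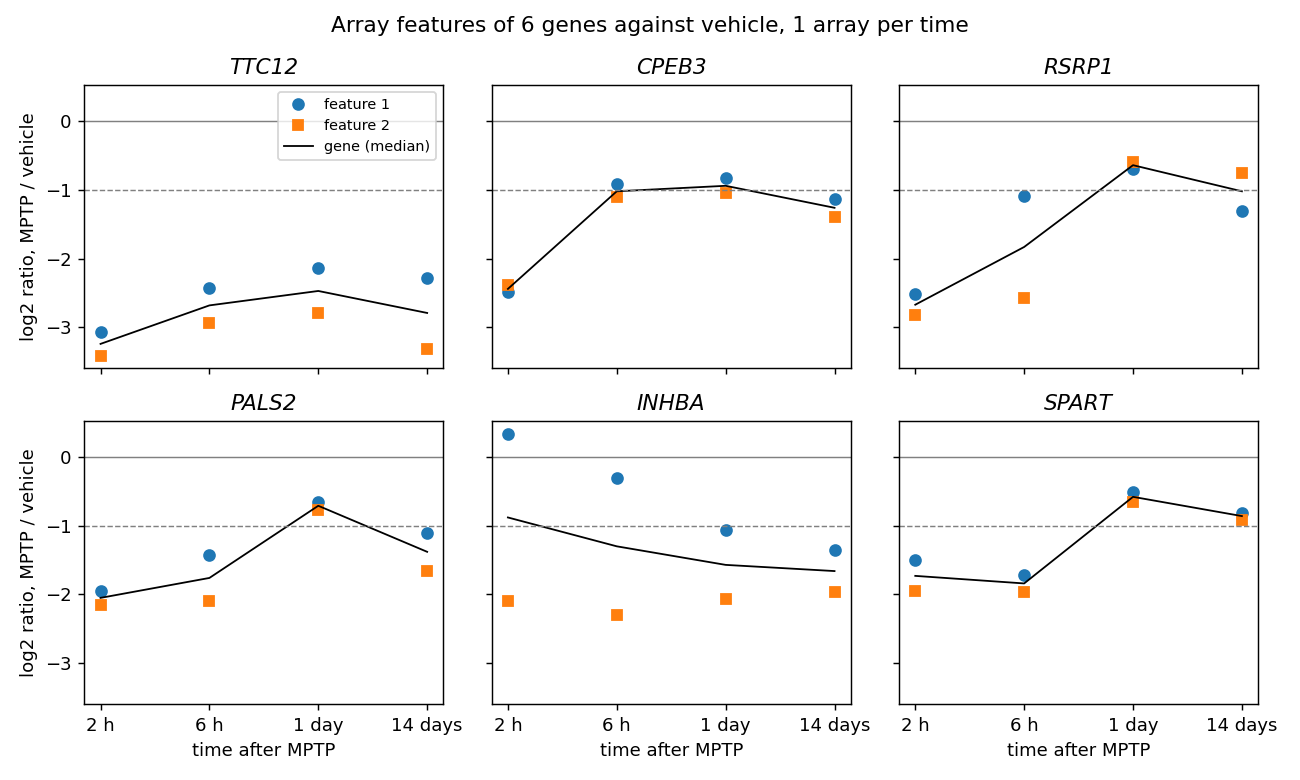
Log2 ratio of MPTP over vehicle (vertical axis) at 2 h, 6 h, 1 day and 14 days (horizontal axis) for the 2 features of each gene (points) and the gene value (line); the dashed line marks 2-fold lower. TTC12 lies at −2.14 or lower in both features on each array, and the features of INHBA stand 2.44 apart at 2 h and 0.60 apart at 14 days.

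Set beside all genes, the 6 genes were in the low tail at most times. All 6 gene values lay below vehicle on all 4 arrays, with medians over the 6 of −2.24, −1.80, −0.82 and −1.32 in order of time. The median of the 7411 genes with 2 or more features was −0.004, 0.014, 0.005 and 0.002. Both features were at least 2-fold lower for 5 of the 6 genes at 2 h, against 1.34% of the 7411 genes. This held for 4 of 6 at 6 h (0.526% of the 7411), for 2 of 6 at 1 day (0.0945%) and for 4 of 6 at 14 days (0.121%). The choice of the genes used these values, so the contrast with the background only restates that choice. The genes at 1 day were TTC12 and INHBA, and those at 14 days were TTC12, CPEB3, PALS2 and INHBA.

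**Figure D2:**
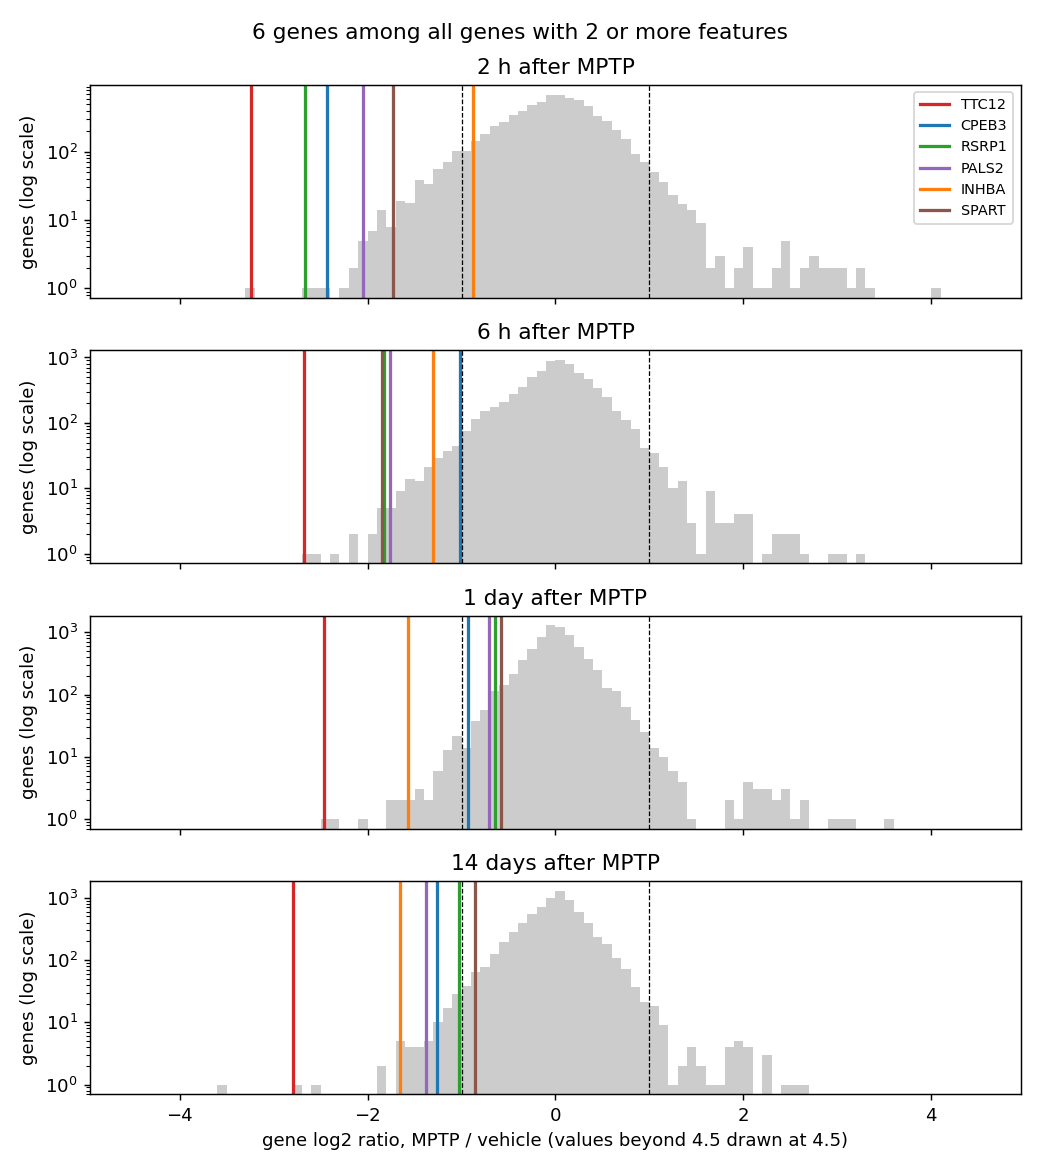
Number of genes (vertical axis, log scale) by gene log2 ratio of MPTP over vehicle (horizontal axis) for the 7411 genes with 2 or more features, 1 panel per array, with the 6 genes as coloured lines and 2-fold as dashed lines. TTC12 is the lowest gene at 2 h, 6 h and 1 day, and 4 of the 6 genes lie inside the 2-fold lines at 1 day.

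The selection was not exhaustive. In all, 26 of the 7411 genes (0.351%) had every feature at least 2-fold lower on 2 or more arrays, and the 6 genes are among them. The number on 3 arrays was 3 (PALS2, PSMC6 and NIBAN1), and TTC12 alone had it on all 4. The count rests on the early arrays, since it was 7 without the 2 h array and 9 without the 6 h array. Without the 2 h array TTC12, PALS2 and INHBA met the criterion, and without the 6 h array these and CPEB3. Of the 20 genes that met it and were not chosen, the lowest were RPAP3, FBXO33, an F-box adaptor of ubiquitin ligases (−1.97, −1.66, −0.76 and −0.99), and PSMC6, an ATPase subunit of the proteasome (−1.93, −1.43, −0.74 and −1.13). SPP1, the secreted phosphoprotein osteopontin, lay at −1.57, −1.15, −0.84 and −1.20 over 10 features. The myelin gene ERMN lay at −1.46, −1.60, −0.61 and −0.58. Just inside the criterion, the higher feature on the second lowest array reached −1.0 for C12orf42 and −1.01 for ZNF429 and NIBAN1. Just outside it, that of GSTO1 and of MAILR reached −0.98. Of the 6 genes, INHBA (−1.06) and RSRP1 (−1.09) were nearest to the edge and TTC12 (−2.43) farthest from it.

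**Figure D3:**
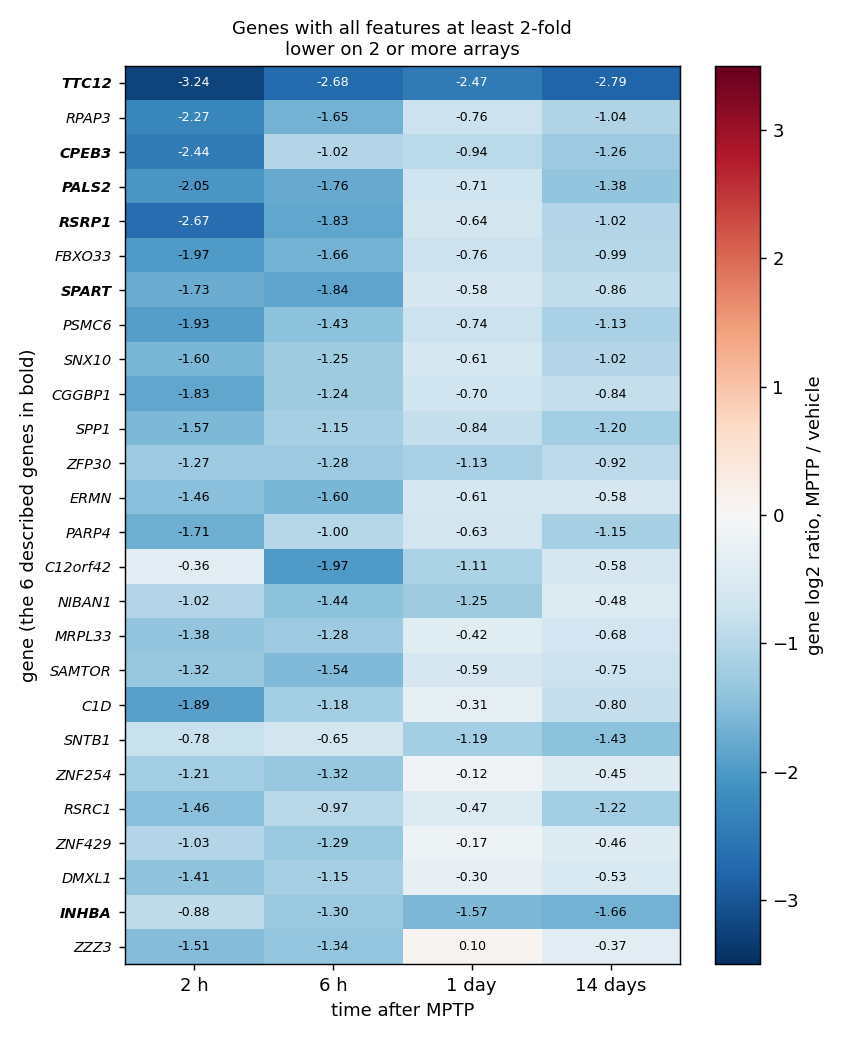
Gene log2 ratio of MPTP over vehicle (colour and printed value) at each time (columns) for the 26 genes (rows) whose features were all at least 2-fold lower on 2 or more arrays, ordered by the mean of the highest feature. TTC12 is the lowest at every time, and INHBA is among the few with lower values at 14 days (−1.66) than at 2 h (−0.88).

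The 6 genes differed in their course over time, and part of that order followed the spread of the arrays. The 1 day array gave the value nearest to vehicle for TTC12, CPEB3, RSRP1, PALS2 and SPART, and the 2 h array gave it for INHBA. The SD of all gene values was 0.71, 0.57, 0.48 and 0.47 in order of time, so distances from vehicle were wider for genes at large on the early arrays. With arrays scaled to 1 median absolute deviation, TTC12 lay at −2.29, −2.62, −3.30 and −3.43, nearest to vehicle at 2 h. CPEB3 then lay at −1.72, −0.99, −1.25 and −1.55, with 6 h nearest. RSRP1 (−1.89, −1.79, −0.86 and −1.26), PALS2 (−1.45, −1.72, −0.95 and −1.70) and SPART (−1.22, −1.80, −0.78 and −1.06) still lay nearest to vehicle at 1 day. INHBA, at −0.62, −1.27, −2.10 and −2.03, still lay nearest at 2 h.

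The genes most like each of the 6 over the 4 arrays were sought among genes with 2 or more features, by the smallest Euclidean distance between gene values. All arrays share the vehicle sample, so likeness includes that sample's own levels. No gene was close to TTC12, for which the nearest was GUCY1A2, a subunit of the nitric oxide receptor guanylate cyclase, at a distance of 2.43 (−1.99, −0.65, −2.07 and −2.52). For CPEB3 the nearest was FUT9, a fucosyltransferase (distance 0.55), followed by CDC14A and PSMC6 (each 0.69). RSRP1 was nearest to RPAP3 (0.45), PALS2 (0.72) and FBXO33 (0.73). PALS2 was nearest to FBXO33 (0.42), RPAP3 (0.42) and PSMC6 (0.43), and SPART to FBXO33 (0.37), UBR7 (0.40) and ERMN (0.46). INHBA had other neighbours in this sense: TRIB3, a stress-induced pseudokinase (0.73), BTG3 (0.75) and HSBP1 (0.79).

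**Figure D4:**
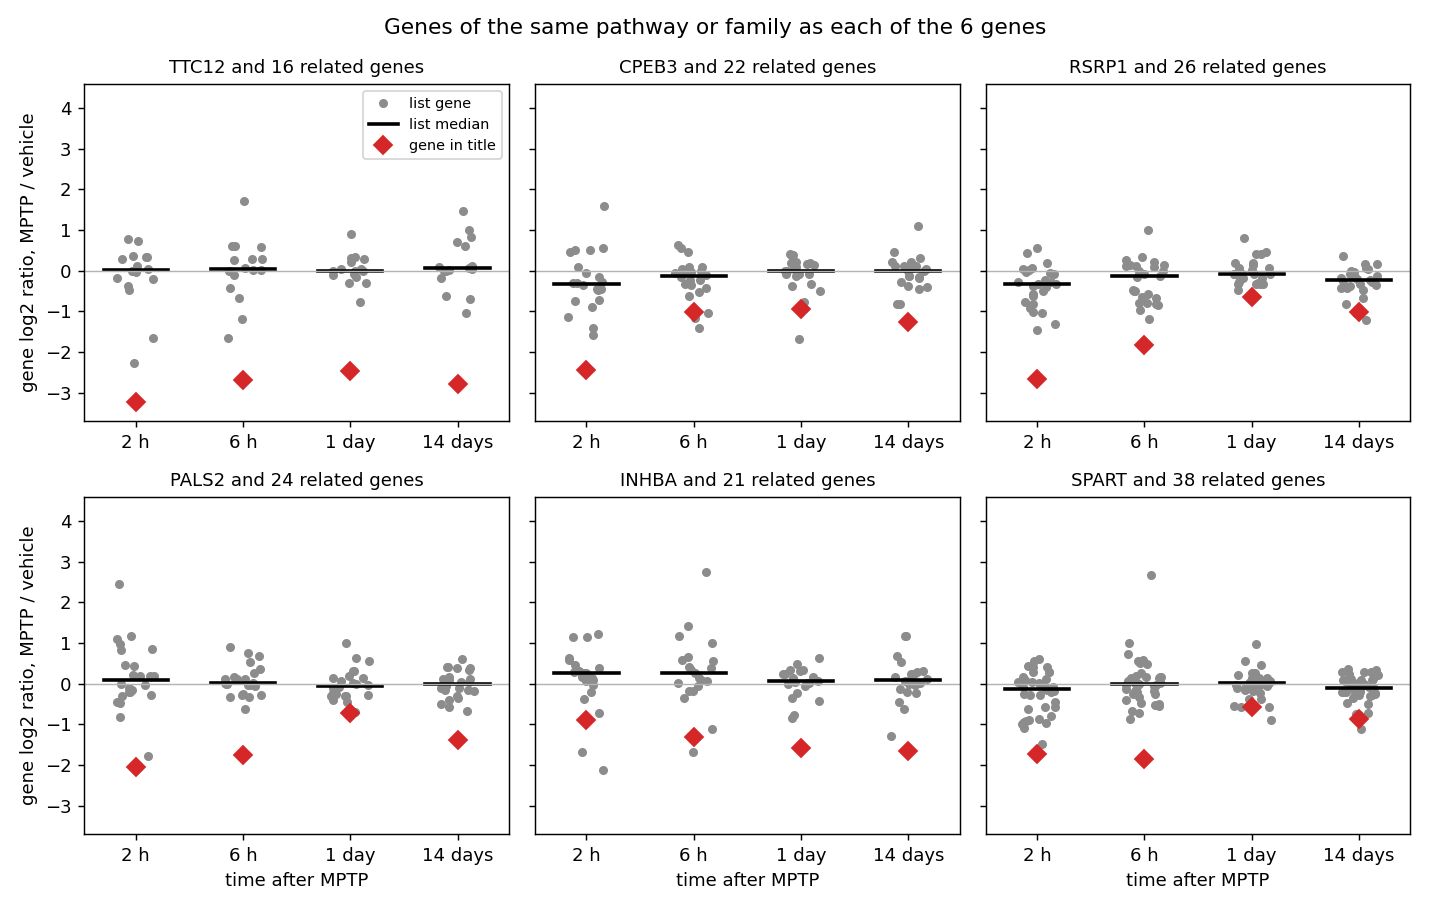
Gene log2 ratio of MPTP over vehicle (vertical axis) at each time (horizontal axis) for the genes of the list drawn up around each gene (grey points, shifted sideways at random), their median (bar) and the gene itself (red diamond). The list medians lie between −0.33 and 0.27, and TTC12 lies below all 16 measured factors of its list on each array.

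The genes next to the 6 along the chromosome had medians near vehicle. The 3 measured genes nearest to each on both sides, by the RefSeq gene order of the marmoset (assembly calJac240_pri), make 36 genes, whose median was 0.05, −0.08, −0.07 and 0.0 in order of time. Of the 36, 7 were at least 2-fold lower at 2 h (7.22% of all genes), 2 at 6 h (3.89%), 2 at 1 day (1.67%) and 1 at 14 days (2.12%). TTC12 lies in a cluster with NCAM1, ANKK1 and DRD2. NCAM1, a cell adhesion molecule, lay at 0.61, 0.01, 0.50 and 0.35, and DRD2, the dopamine D2 receptor, at 0.41, 0.08, −0.11 and 0.11. ANKK1 lay at −0.60, 0.74, −0.32 and −0.58, so none of these 3 was 2-fold from vehicle. PTS, an enzyme that makes the tetrahydrobiopterin cofactor of tyrosine hydroxylase, is the next measured gene beyond NCAM1 and lay at −2.51, −0.47, −1.27 and −1.53 from 1 feature. Beside PALS2, STK31 lay at −2.01, −1.29, −1.02 and −0.62 from 1 feature, while NPY, which lies between them, stayed between −0.16 and −0.08. Beside INHBA, MRPL32, a mitochondrial ribosomal protein, lay at −1.59 at 2 h and PSMA2, a proteasome subunit, at −1.15 at 6 h.

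**Figure D5:**
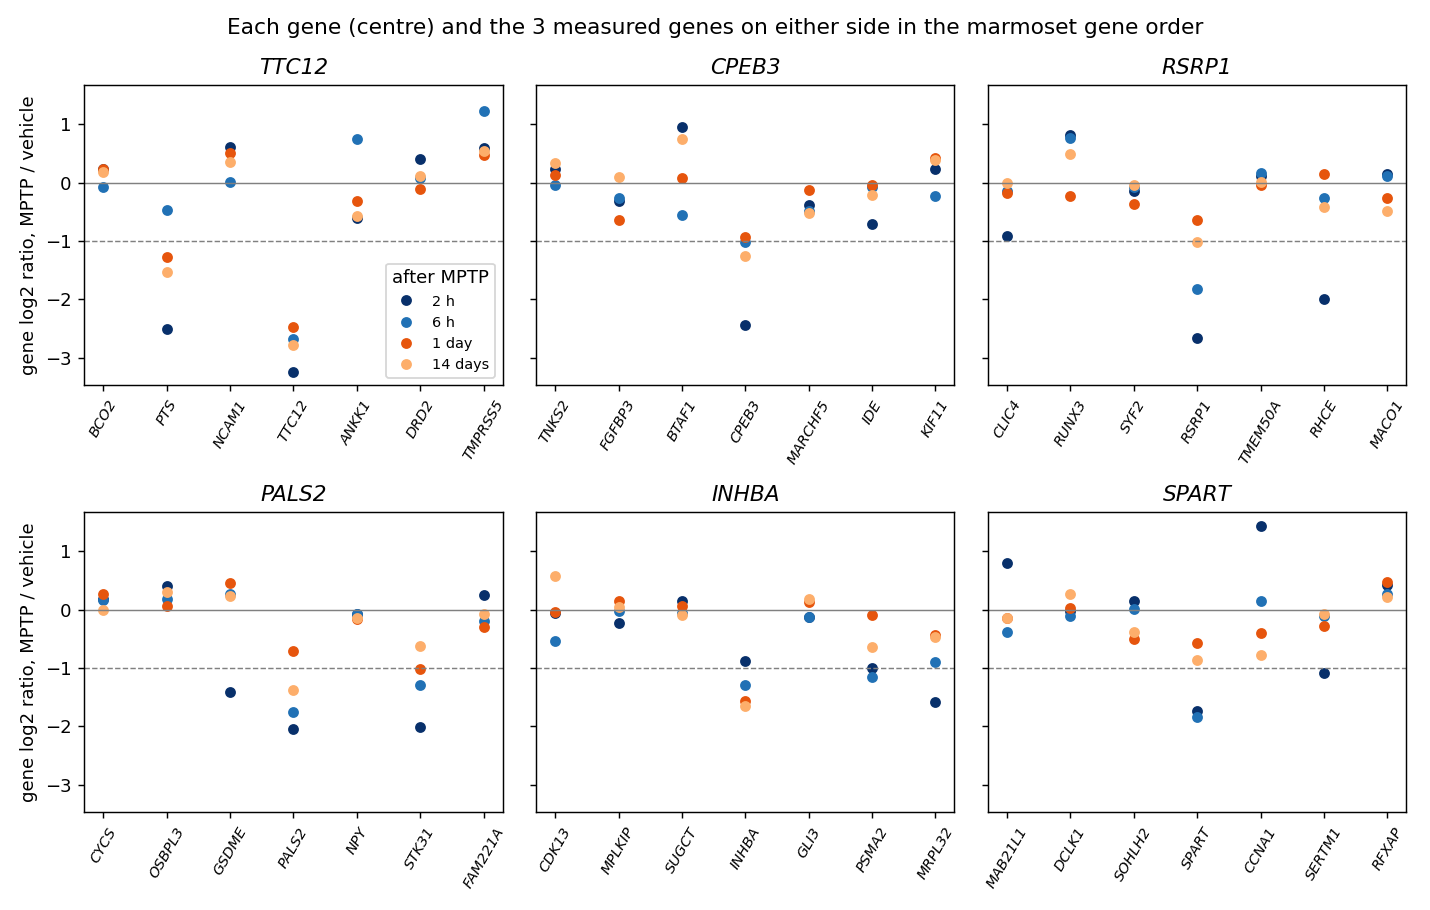
Gene log2 ratio of MPTP over vehicle (vertical axis) for each gene (centre of its panel) and its 3 nearest measured genes to the left and right (horizontal axis, marmoset gene order, not to scale), coloured by time. PTS beside TTC12 and STK31 beside PALS2 are the neighbours with 2-fold lower values on 3 arrays.

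Cell type markers on the same arrays give the setting of these values. None of 12 dopamine neuron markers was at least 2-fold lower at any time, against 7.22%, 3.89%, 1.67% and 2.12% of all genes, and their medians were 0.11, 0.22, 0.21 and 0.11. At least 2-fold higher were 1 of 12 at 2 h (5.47% of all genes), 1 at 6 h (3.37%), 2 at 1 day (2.27%) and 0 at 14 days (2.16%). These were the transcription factor LMX1B at 2 h (1.76), the aldehyde dehydrogenase ALDH1A1 at 6 h (1.06) and 1 day (1.23), and the potassium channel subunit KCNJ6 at 1 day (1.01), from 1 feature each. TH, which catalyses the rate-limiting step of dopamine synthesis, lay at 0.90 ± 0.52 (SD, 2 features), 0.64 ± 0.62, 0.39 ± 0.68 and 0.50 ± 0.59. At 1 day and 14 days its value was smaller than the spread between its features. SLC6A3, the dopamine transporter, was listed at exactly 0 on all arrays. For the 5 GABAergic markers the median ratios were −0.26, −0.82, −0.63 and −0.78. Of these, 1 was at least 2-fold lower at 2 h (7.22% of all genes), 2 at 6 h (3.89%), 0 at 1 day (1.67%) and 1 at 14 days (2.12%). None was 2-fold higher (5.47%, 3.37%, 2.27% and 2.16%). GAD2, SLC32A1, PVALB and SST had 1 feature each. The SD of GAD1 over 3 features (1.70, 0.77, 1.11 and 1.27) exceeded its distance from vehicle. PVALB lay above vehicle at 2 h (0.35) and 6 h (0.26). The range over the 5 was −2.18 to 0.35 at 2 h and −1.83 to −0.54 at 14 days. The 7 astrocyte markers had median ratios of −0.51, −0.37, −0.05 and 0.02. For 7 oligodendrocyte markers these were −0.18, 0.17, −0.05 and 0.09, and the members went both ways. The 2 h array had values from −1.46 to 1.35 and the 14 days array from −0.78 to 0.40. MBP lay at −0.92, −1.57, −1.06 and −0.78, and OLIG2, a transcription factor of these cells, at 1.35, 0.57, 0.05 and 0.40. Endothelial and pericyte markers had medians of 0.18, 0.29, 0.30 and 0.43, and microglial markers 0.26, −0.01, −0.21 and 0.20, each over 7 genes. The 5 erythrocyte markers had median ratios of 0.74, 0.33, 0.45 and 0.97, and 6 markers of neurons in general had 0.08, −0.16, 0.07 and −0.32. The part of these markers in the values of the 6 genes was not tested.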

How the data were processed

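The deposited table held 1 value for each of 43931 features on each of 4 arrays. The deposited values were read as log10 ratios of Cy5 over Cy3, because both signs occur, medians lie near 0 and no value passes 2 in size, with exactly 2 reached on every array and exactly −2 on all but the 1 day array. How the authors made these log10 ratios, with which background correction and normalization, is not given in the sources used here. Per the labels, RNA was amplified in 2 rounds. Precision is limited by the number of arrays, 1 at each time, and without spot intensities the signal over background cannot be given. Here values were multiplied by log2 of 10 and each array was centred on its median over all features, listed in the annotation or not. Gene symbols came from the platform annotation (29033 features with 1 symbol, 97 with several, 14801 not in it), and a gene's value is the median over its features. The order of genes along the marmoset assembly was used only to find neighbours, no coordinates are printed, and no probe sequences were used.

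No test was run. The 6 genes, the 6 gene lists around them (147 of 155 genes measured) and the marker lists were chosen with earlier results of these data known. Named besides the 6 are up to 10 other genes meeting the criterion of 2 or more arrays, the 3 most like each gene, its 3 neighbours on either side, and up to 6 members per list past 2-fold at any time. The CPEB paralogues and the edge genes were named after their values were seen. Not every gene that this rule allows is named. Python 3.11.15 with pandas 2.3.3 and matplotlib 3.10.9 was used. The gene value and the count of genes with all features at least 2-fold lower were tried on shuffled values. The changes added there were larger than those of the 6 genes. The likeness ranking, the neighbours and the list summaries were not tried in this way.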

Additional observations from a re-analysis of the deposited data

Results flagged for a closer look

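Features that the annotation does not list held low ratios more often than named ones. They entered no gene value above, but the centring of each array used them. Of 14801 such features, 526 (3.55%) were at least 2-fold lower on all 4 arrays, against 95 (0.327%) of the 29033 features with 1 gene symbol. Control spots could not be told from other unlisted features.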

How the results depend on the processing

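All 24 values of the 6 genes stayed below vehicle without centring, with centring on named features (chosen after seeing the data) and with arrays scaled to 1 median absolute deviation. They also did with the mean over features and with exact zeros taken as not measured, but these 2 settings could hardly change them. Each gene has 2 features, so the mean equals the median. None of the 12 features was at exactly 0 on any array, so leaving out zeros acted only through the centre of each array. The scaling moved 12 of the 24 by more than the SD between features, which stood in for the missing replicate spread. The number of the 6 genes with both features past the threshold was 2 at 6 h, 1 at 1 day and 1 at 14 days when 3-fold was asked, and 5 at 1 day when 1.5-fold was asked. The count of 26 genes on 2 or more arrays, whose alternatives were all chosen after seeing the data, was 137 at 1.5-fold, 2 at 3-fold (TTC12 and FBXO33), 106 when only the gene median had to pass and 52 with exact zeros taken as not measured. It was 7 without the 2 h array and 9 without the 6 h array. List medians moved by at most 0.36, which was the SR protein list at 6 h (−0.14 to −0.50) with only members of 2 or more features. That alternative turned the median of the dynein assembly list at 14 days (0.06 to −0.17) and of the scaffold list at 2 h (0.09 to −0.15). In the dynein assembly list it leaves only SPAG1, RUVBL1 and RPAP3, and −0.17 is the value of SPAG1. No paired analysis was possible because each time has 1 array. With no intensities, dim features could not be left out.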

Other observations

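SNTB1, a syntrophin of the dystrophin complex, and INHBA were the only 2 of the 26 genes that met the criterion at 1 day and 14 days and at neither earlier time. SNTB1 lay at −0.78, −0.65, −1.19 and −1.43 in order of time, from 2 features. For INHBA, 1 feature was at least 2-fold lower at every time (−2.10, −2.30, −2.07 and −1.96). INHBA missed the criterion at 2 h and 6 h because its other feature lay at 0.34 and −0.31. By contrast, 16 of the 26, SPART and RSRP1 among them, met the criterion at 2 h and 6 h alone. These patterns were noticed in the data and carry no test.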
